A study of Mus musculus with 8 samples.

Results

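The comparison described here is that of the 4 skin arrays labelled p107-/- with the 4 other arrays of the series, taken over both pRb backgrounds. All 8 arrays of the series entered it, 4 of them p107-/- and 4 not, and pRb status was a term of the model, so that each gene was compared within pRb+/+ skin and within pRb-/- skin at once. The genes described are those that moved the same way in both backgrounds. RNA from 3 newborn FVB mice of a genotype, extracted from 30 mg of whole skin, was pooled for an Affymetrix expression array. There were 2 arrays of each of 4 genotypes: pRb+/+, with both proteins kept; pRb-/-;p107+/+, which lacks pRb; pRb+/+;p107-/-, which lacks p107; and pRb-/-;p107-/-, which lacks both. For pRb+/+ skin no p107 genotype is labelled, and it is taken as intact. The labels also do not name the promoter or the cells in which Rb1 was deleted, and the skin of a newborn holds epidermis, hair follicles, dermis, fat, muscle, vessels and blood cells together.

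The pocket proteins are the retinoblastoma protein pRb (gene Rb1), p107 (gene Rbl1) and p130 (gene Rbl2). They bind E2F transcription factors and hold genes of DNA synthesis and division in check until cyclin-dependent kinases phosphorylate them. In skin, epidermal cells leave the cell cycle as they move from the basal layer into the spinous and granular layers. In the hair follicle, matrix cells divide in the bulb and then turn on hair keratins, keratin-associated proteins and the keratins of the inner root sheath as they build the shaft and its guiding sheath.

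The deposited values are scores: for every probe set they average 0 with an SD of 1 across the arrays. A score unit is thus 1 SD of the probe set in question, no level or fold change can be read, no gene's level can be set against another's, and the labelled tissue cannot be checked by how strongly its markers were expressed. The mean of 4 arrays can differ from that of the other 4 by at most 1.87 on this scale, so the size of a difference says how cleanly the arrays part. Differences are p107-/- minus the other arrays, in score units with the standard error (SE) of the model. The labels do not say whether the arrays of a genotype held separate pools, so p-values measure only the spread between these arrays, and the number of arrays limits the precision. In addition, 2 classes of control probe sets that measure no mouse gene parted by p107 status. The 27 poly-A control probe sets averaged 0.21 and 0.12 on the pRb+/+ arrays, 1.27 and 1.00 on the pRb-/-;p107+/+ arrays, -0.48 and -0.44 on the pRb+/+;p107-/- arrays and -0.84 on both pRb-/-;p107-/- arrays. The 18 hybridization control probe sets averaged 0.62 ± 0.97 (SD, n = 4 arrays) on the arrays that were not p107-/- and -0.62 ± 0.21 on the p107-/- arrays. Neither class overlapped between the groups (exact two-sided permutation test, p = 0.0286 for each class, the lowest possible with 4 arrays against 4, or 0.0571 after adjustment for both classes). In every result below, p107 status and this difference in controls cannot be told apart. Genes of the sex chromosomes set single genotypes apart as well, and the labels do not give the sex of the pooled mice. The Y-linked gene Eif2s3y scored -1.43 and -1.51 in pRb+/+;p107-/- skin and between 0.07 and 1.45 on the other 6 arrays. Xist, which silences an X chromosome in females, scored -1.63 and -1.48 in pRb-/-;p107-/- skin and between -0.13 and 0.79 on the other 6, though by p107 status its difference was opposite in sign to that of both its other probe sets. The part of sex in the results was not tested.

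Rbl1, the gene of p107, was lower on the p107-/- arrays within each pRb background. Its first probe set scored 0.08 and 0.21 in pRb+/+ skin and -1.51 and -1.22 in pRb+/+;p107-/- skin. Scores were 1.30 and 1.14 in pRb-/-;p107+/+ skin and -0.31 and 0.31 in pRb-/-;p107-/- skin. The groups of 4 overlapped, because pRb-/- skin scored higher at each p107 status. With pRb status in the model the difference was -1.36 ± 0.17 (SE, limma linear model without moderation, adjusted p = 0.043), made up of -1.51 in pRb+/+ skin and -1.22 in pRb-/- skin. Another Rbl1 probe set was also lower by value in both backgrounds without passing (-1.49 ± 0.45, adjusted p = 0.153). Whether the probes of Rbl1 or Rb1 fall inside the deleted stretch of the gene was not tested. Rb1 scored 1.21 and 1.07 in pRb+/+ skin, -0.22 and 0.36 in pRb-/-;p107+/+, 0.02 and 0.40 in pRb+/+;p107-/- and -1.56 and -1.28 in pRb-/-;p107-/- skin. It was lower in pRb-/- skin at each p107 status, but skin lacking p107 alone overlapped in Rb1 score with skin lacking pRb alone, so its level does not tell these 2 genotypes apart. By p107 status Rb1 differed by -1.21 ± 0.21 (adjusted p = 0.0672) and Rbl2 by 1.32 ± 0.59 (adjusted p = 0.266), with the opposite sign in the other Rbl2 probe set. Neither passed. The Rbl1 promoter holds a site of the E2F type close to its start. The RefSeq promoter of Rbl1 (GRCm38.p6, chr2:157204485-157204784, minus strand, from 250 bases before to 50 after the start site), with the letters TTTCGCGC in capitals at positions -18 to -11 from the start site, is as follows.
Rbl1: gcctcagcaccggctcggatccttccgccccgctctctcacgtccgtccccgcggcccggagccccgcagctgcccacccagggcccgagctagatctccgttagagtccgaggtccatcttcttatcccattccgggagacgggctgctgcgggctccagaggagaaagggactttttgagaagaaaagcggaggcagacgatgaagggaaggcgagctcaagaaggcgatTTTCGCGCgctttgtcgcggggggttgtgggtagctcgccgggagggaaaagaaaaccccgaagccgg

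Over all 22626 probe sets that measure transcripts, 397 passed the threshold of 0.05 for the adjusted p in the comparison by p107 status (1.75% of those tested, limma linear model without moderation), 142 higher (0.628%) and 255 lower (1.13%) on the p107-/- arrays. All 397 had the same sign in both pRb backgrounds, which the model largely fixes, since a difference between backgrounds counts as residual in it. Of them, 369 had no overlap between the 4 p107-/- arrays and the 4 others, against 15.7% of all probe sets. The size of their differences ran from 0.99 to 1.86, with a median of 1.74. Tested in each background on its own, 29 of the 397 passed in both, 32 in pRb+/+ skin, 86 in pRb-/- skin and 308 in neither. Most of the shared calls were therefore made with the 2 backgrounds in one fit. In pRb+/+ skin 95 probe sets passed (0.42%), 63 of which did not pass over both backgrounds, and in pRb-/- skin 310 passed (1.37%), 224 of which did not pass over both. The differences in the 2 backgrounds come from different arrays. Across probe sets, which are not independent replicates, these differences correlated with r = 0.28, with the same sign for 13827 probe sets (61.1%). In this fit 5107 probe sets had an unadjusted p below 0.05 where 1131 would be expected by chance. With limma's moderated variances, 0 probe sets passed, although 6070 had an unadjusted p below 0.05. The count was 37 and 20 without pRb+/+ replicate 1 and 2, 56 and 21 without pRb-/-;p107+/+ replicate 1 and 2, 6 and 0 without pRb+/+;p107-/- replicate 1 and 2, and 1 and 0 without pRb-/-;p107-/- replicate 1 and 2. In the fits that called 0 without an array, 3877 and 3919 probe sets had an unadjusted p below 0.05.

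With 1 probe set standing for each of 12393 genes, 208 genes passed (1.68%), 75 higher (0.605%) and 133 lower (1.07%). The median difference over all genes was 0.22, with 0.40 in pRb+/+ skin and -0.05 in pRb-/- skin. It was 0.14 when array medians were subtracted and 0.15 after quantile normalization. Differences were positive for 56.4% of all genes, positive in each background for 34.7% and negative in each for 25.4%. At an unadjusted p below 0.05 in the limma model, 11.5% of genes were higher and 9.98% lower. Without overlap between the groups of 4 arrays, 926 genes were higher (7.47%) and 889 lower (7.17%), 14.6% in all. Of the called genes, 80 had other probe sets. For 25 of these at least one other probe set had the opposite sign, and for 7 another was called too.

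**Figure D1:**
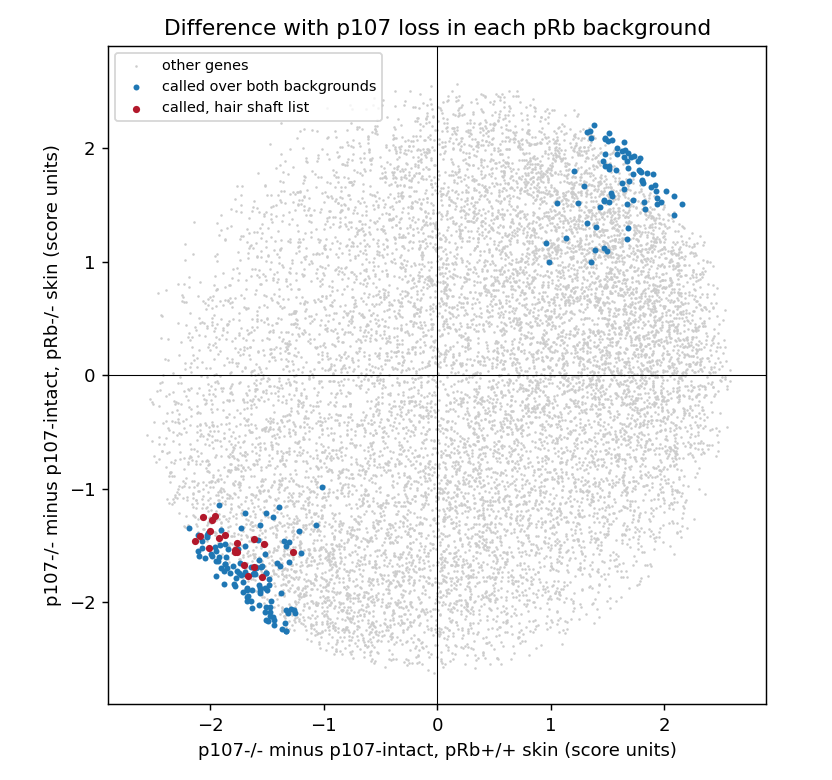
Each point is a gene, with its difference between p107-/- and p107-intact arrays in pRb+/+ skin on the x axis and in pRb-/- skin on the y axis, both in score units. Grey points are genes not called over both backgrounds, blue points called genes and red points the 20 called genes of the hair shaft list. All called genes lie in the 2 quadrants of equal sign, and the outer edge of the cloud comes from the standardization of the scores.

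The genes with the largest falls shared by both backgrounds included genes of the hair follicle, the matrix and the cell cycle. S100a6, which encodes a small calcium-binding protein, scored 0.84, 0.96, 1.06 and 0.85 on the arrays that were not p107-/- and -1.05, -0.91, -0.74 and -1.02 on the p107-/- arrays. All 4 p107-/- arrays were low to a like degree, and the difference was -1.86 ± 0.09 (adjusted p = 0.0121), with -1.88 in pRb+/+ and -1.84 in pRb-/- skin. Crym, the gene of a thyroid hormone binding protein, fell by 1.79 ± 0.09 (adjusted p = 0.0141). Its scores were 1.00 and 1.35 in pRb+/+, 0.57 and 0.66 in pRb-/-;p107+/+, -0.58 and -0.73 in pRb+/+;p107-/- and -1.09 and -1.17 in pRb-/-;p107-/- skin, so that skin lacking pRb was the lower of each pair. Among matrix genes, the fibrillar collagen gene Col11a1 fell by 1.82 ± 0.14 (adjusted p = 0.0251), as did the microfibril gene Mfap3 (-1.77 ± 0.18) and the fibronectin domain gene Fndc1 (-1.75 ± 0.11). Scel, which encodes the cornified envelope precursor sciellin, differed by -1.82 ± 0.19 and Fbp1, an enzyme of gluconeogenesis, by -1.78 ± 0.17. The inner root sheath keratin genes Krt25 and Krt72 were also among the 15 largest falls, together with Ccna2, Mcl1, Pinlyp, Cnpy2, Ly6g6d and Bloc1s6, and each passed the threshold. Mcl1, which encodes a survival protein of the Bcl2 family, had 5 other probe sets, of which 1 had the opposite sign and 1 was called as well.

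The genes with the largest shared rises had varied functions, and of the 15 Cpa3 is a mast cell marker. Stc2, a secreted glycoprotein hormone gene, scored between -1.09 and -0.75 on the arrays that were not p107-/-, and 0.35, 1.29, 1.16 and 0.79 on the p107-/- arrays. Its difference was 1.79 in each background, and 1.79 ± 0.23 over both (adjusted p = 0.0456). The potassium channel gene Kcnj5 rose by 1.81 ± 0.19 and Otof, a calcium sensor of vesicle fusion, by 1.82 ± 0.18. Kansl1, a subunit gene of a histone acetyltransferase complex, rose by 1.79 ± 0.13, Usp3, a deubiquitinase gene, by 1.75 ± 0.23, and Naa40, which acetylates histone tails at their first residue, by 1.76 ± 0.16. The pyruvate kinase gene Pkm (1.70 ± 0.24) and the lymphocyte receptor gene Ly9 (1.81 ± 0.20) also rose. The other 6 were Sgsh, which breaks down heparan sulfate in lysosomes, Vapb of the endoplasmic reticulum membrane, the RNA helicase gene Ddx5, Lrr1, Tmem39a and AI506816. Other probe sets went the opposite way for Sgsh (its only other one), Vapb (its only other one), Lrr1 (1 of 2) and Ddx5 (4 of 5), so these rises rest on a single probe set.

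**Figure D2:**
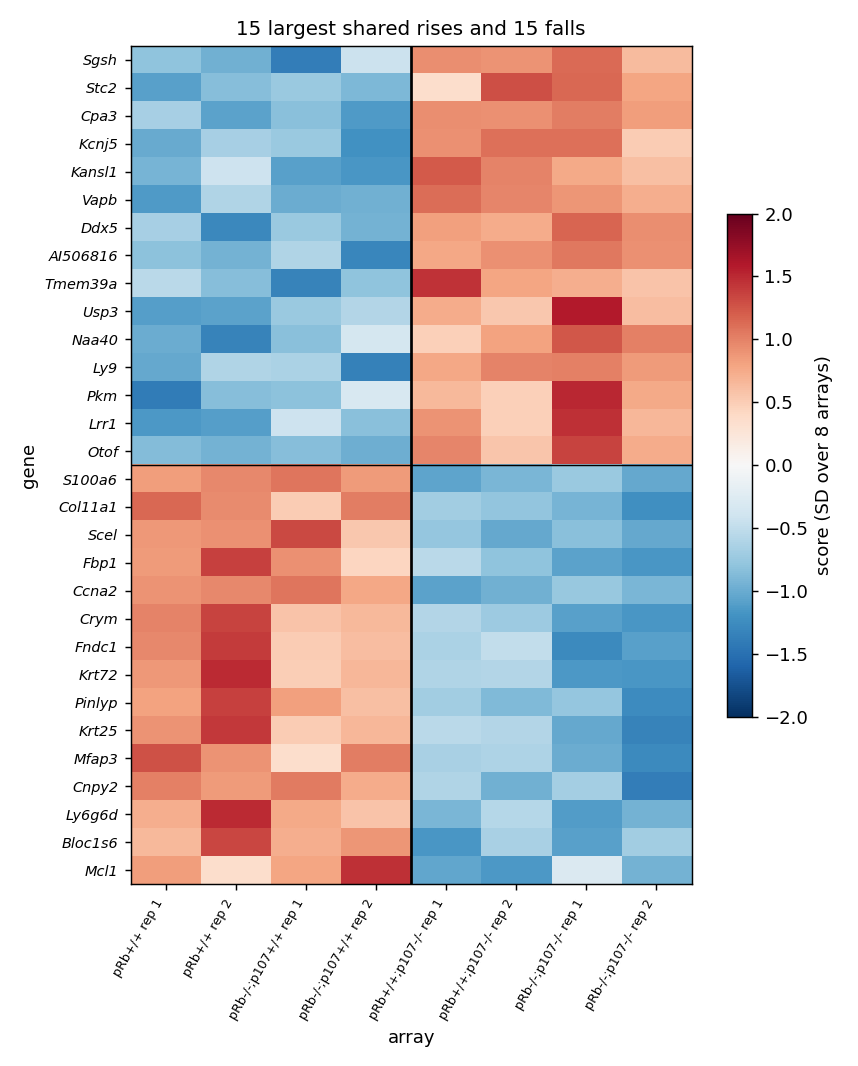
Scores of the 15 genes with the largest shared rises (top) and the 15 with the largest shared falls (bottom) are shown by array, 4 arrays that are not p107-/- to the left of the black line and 4 p107-/- arrays to its right, in SD over the 8 arrays. Each gene changes colour at the line in both pRb backgrounds, which is how the genes were chosen.

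Genes of the hair shaft were frequent among the shared falls. Of 34 measured genes of a list of 53 hair keratins, keratin-associated proteins and S100a3, 20 fell and none rose, where 1.07% of all genes fell. The list's median difference was -1.64, with -1.90 in pRb+/+ skin and -1.39 in pRb-/- skin, against medians over all genes of 0.22, 0.40 and -0.05. Differences were negative for 32 of the 34 and negative in each background for 30, beside 25.4% of all genes. Without overlap between the groups, 29 were lower and 2 higher, beside 7.17% and 7.47% of all genes. The 2 positive ones were Krt84 (1.60) and Krtap19-1 (1.57), neither past the threshold. As whole skin was used, fewer hair shaft cells and less RNA per cell cannot be told apart.

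The hair keratins form the intermediate filaments of the shaft, type I partnered with type II. Among type I genes 5 of 7 fell and all 7 had negative differences in both backgrounds. Krt31 scored 1.33 and 1.28 in pRb+/+ skin, 0.44 and 0.29 in pRb-/-;p107+/+ skin, and -0.42 and -0.53 in pRb+/+;p107-/- skin. It was lowest in pRb-/-;p107-/- skin, at -1.2 and -1.19. The 4 genotypes stood in separate steps with replicate arrays close together. Its difference was -1.67 ± 0.06 (adjusted p = 0.00966), -1.78 in pRb+/+ and -1.56 in pRb-/- skin. Krt33a differed by -1.66 ± 0.09 (adjusted p = 0.0181), Krt34 by -1.68 ± 0.16, Krt33b by -1.51 ± 0.14 and Krt35 by -1.80 ± 0.20. Krt35 departed from the stepwise pattern: it scored -0.86 and -1.04 in pRb+/+;p107-/- skin and -0.75 and -0.95 in pRb-/-;p107-/- skin, with no step between them. Of 5 type II genes, Krt81 (-1.63 ± 0.22, adjusted p = 0.0472) and Krt83 (-1.68 ± 0.15, adjusted p = 0.0282) fell, while Krt86 differed by -1.62 ± 0.24 and Krt82 by -1.77 without passing (adjusted p = 0.0533 and 0.055).

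Keratin-associated proteins cross-link the hair keratins, and 13 of 21 measured genes fell. Krtap16-3 scored 1.2 and 1.41 in pRb+/+, 0.30 and 0.42 in pRb-/-;p107+/+, -0.49 and -0.44 in pRb+/+;p107-/- and -1.18 and -1.22 in pRb-/-;p107-/- skin. It followed the same 4 steps as Krt31, with a difference of -1.66 ± 0.07 (adjusted p = 0.00966), and its other probe set was called too. Krtap6-2 (-1.72 ± 0.12), Krtap19-5 (-1.64 ± 0.15), Krtap8-1 (-1.65 ± 0.15), Krtap3-1 (-1.42 ± 0.15) and Krtap9-3 (-1.60 ± 0.20) fell as well. Near 0 were Krtap5-1 (-0.14) and Krtap5-4 (-0.41). Many of these genes have near-identical copies, and probes of one may bind transcripts of another, so the members are not independent measurements.

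Over the 20 called hair shaft genes, differences ran from -1.80 to -1.42 and adjusted p-values from 0.00966 to 0.0486, and none of the 20 had overlapping groups. In 19 of them the genotype means went in one order from high to low: pRb+/+ skin first, then pRb-/-;p107+/+ skin, then pRb+/+;p107-/- skin and last pRb-/-;p107-/- skin. As these genes were called lower without overlap, both p107-/- genotypes lie below the others by choice of the genes. Only the order by pRb status at each p107 status was free. Single scores lay between 0.92 and 1.64 in pRb+/+ skin, -0.19 and 0.75 in pRb-/-;p107+/+, -1.04 and 0.02 in pRb+/+;p107-/- and -1.43 and -0.75 in pRb-/-;p107-/- skin. The mean score of all 34 genes was 1.14 and 1.19, 0.18 and 0.17, -0.37 and -0.51, and -0.92 and -0.90 on the arrays of these genotypes in that order. Over the same genotypes the poly-A controls were highest in pRb-/-;p107+/+ skin and lowest in pRb-/-;p107-/- skin. The hybridization controls averaged 0.37 and 2.05, 0.09 and -0.03, -0.80 and -0.71, and -0.64 and -0.32, so that they went down over the first 3 genotypes as the hair shaft genes did. The part of either in the result was not tested. The number of calls in the list was 6 and 2 without pRb+/+ replicate 1 and 2, 5 and 2 without pRb-/-;p107+/+ replicate 1 and 2 and 0 without any one p107-/- array, while the median stayed between -1.70 and -1.58. It was 10 when array medians were subtracted, 12 after quantile normalization and 3 without pRb status in the model.

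The called keratin and keratin-associated genes lie in a few runs of neighbours. Among measured protein-coding genes of the RefSeq mouse gene table, 10 in a row were called on chromosome 11 (Krtap3-1, Krtap1-5, Krtap9-3, Krtap4-2, Krtap4-16, Gm11567, Krt33a, Krt33b, Krt34 and Krt31), and Krt25 and Krt27 formed another pair there. On chromosome 16 another 10 in a row were called (Krtap19-5, Krtap19-9b, Krtap16-3, Gm10229, Gm10228, Krtap6-5, Krtap6-3, Krtap21-1, Krtap6-2 and Krtap8-1). Outside the list, and chosen after their values were seen, Gprc5d, a receptor gene of the hair cortex, differed by -1.74 ± 0.04 (adjusted p = 0.00351, the smallest of the comparison), the keratin-associated protein gene Krtap6-5 by -1.63 ± 0.06 and Selenbp1, which encodes a selenium-binding protein, by -1.73 ± 0.07. Gprc5d scored 1.21 and 1.27, 0.54 and 0.47, -0.54 and -0.59, and -1.14 and -1.22 over the genotypes from pRb+/+ to pRb-/-;p107-/-, the same 4 steps.

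The promoters of hair shaft genes that fell together share short letters, and 4 of them are shown for that reason. They are RefSeq sequences (GRCm38.p6, all on the minus strand, from 250 bases before to 50 after the start site) of Krt31 (chr11:100050502-100050801), Krt34 (chr11:100041505-100041804), Krtap16-3 (chr16:88962824-88963123) and the inner root sheath keratin gene Krt25 (chr11:99322902-99323201). Capitals mark TATAAA, the TATA box letters, on the gene's strand, and CTTTGA or CTTTGT, letters bound by LEF and TCF factors of the Wnt pathway, on either strand (ACAAAG is CTTTGT on the other strand).
Krt31: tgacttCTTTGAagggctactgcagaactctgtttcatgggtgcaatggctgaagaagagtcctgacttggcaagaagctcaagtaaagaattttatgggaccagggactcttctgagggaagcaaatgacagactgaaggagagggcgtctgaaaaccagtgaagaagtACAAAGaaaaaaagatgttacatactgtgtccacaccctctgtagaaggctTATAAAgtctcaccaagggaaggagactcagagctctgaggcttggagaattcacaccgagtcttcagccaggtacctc
Krt34: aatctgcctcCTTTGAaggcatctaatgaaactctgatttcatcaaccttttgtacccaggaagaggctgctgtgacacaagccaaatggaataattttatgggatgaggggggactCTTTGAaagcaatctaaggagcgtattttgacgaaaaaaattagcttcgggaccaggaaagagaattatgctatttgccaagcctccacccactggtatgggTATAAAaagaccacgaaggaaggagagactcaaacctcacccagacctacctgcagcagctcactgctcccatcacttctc
Krtap16-3: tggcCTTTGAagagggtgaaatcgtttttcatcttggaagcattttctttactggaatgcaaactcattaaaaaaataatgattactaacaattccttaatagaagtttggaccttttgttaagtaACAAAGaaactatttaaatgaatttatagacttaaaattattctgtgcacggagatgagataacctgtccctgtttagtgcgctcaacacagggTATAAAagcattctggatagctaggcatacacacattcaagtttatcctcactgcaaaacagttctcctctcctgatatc
Krt25: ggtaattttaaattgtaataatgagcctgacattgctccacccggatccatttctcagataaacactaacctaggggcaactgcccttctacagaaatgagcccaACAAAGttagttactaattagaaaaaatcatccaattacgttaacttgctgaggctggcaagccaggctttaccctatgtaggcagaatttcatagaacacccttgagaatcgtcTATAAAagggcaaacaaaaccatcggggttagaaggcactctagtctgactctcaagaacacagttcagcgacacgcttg
In all 4 promoters TATAAA began between positions -31 and -29 from the start site. Of 9882 genes with a promoter sequence in the table, 6.87% held TATAAA on the forward strand, against 18 of 28 hair shaft genes (64.3%) and 14 of the 16 that fell (87.5%). The LEF and TCF letters were found in 25.8% of all promoters, in 17 of 28 hair shaft promoters (60.7%) and in 12 of the 16 that fell (75%). Hair shaft genes outside the called ones therefore held these letters too, and a match is a run of letters, not a measured site.

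Genes of the inner root sheath, which guides the growing shaft, were also mostly lower. Of 11 measured genes, 6 fell and 1 rose, where 1.07% of all genes fell and 0.605% rose. The median was -1.70 (-1.56 in pRb+/+ and -1.49 in pRb-/- skin). Krt25 scored 0.90 and 1.42 in pRb+/+, 0.51 and 0.66 in pRb-/-;p107+/+, -0.54 and -0.59 in pRb+/+;p107-/- and -1.03 and -1.33 in pRb-/-;p107-/- skin, again in 4 steps. Its difference was -1.75 ± 0.14 (adjusted p = 0.0251). Also lower were the sheath keratin genes Krt27 (-1.72 ± 0.16) and Krt72 (-1.75 ± 0.14), the companion layer keratin gene Krt75 (-1.82 ± 0.20), the trichohyalin gene Tchh (-1.73 ± 0.18) and Padi3 (-1.70 ± 0.14), whose enzyme deiminates trichohyalin. Tgm3, a transglutaminase gene of hair and of the granular epidermis, rose by 1.75 ± 0.23 (adjusted p = 0.0462). Krt71 differed by -1.70 ± 0.33 without passing (adjusted p = 0.0792). Without an array, between 0 and 2 members were called, namely 2 when pRb+/+ replicate 1 or pRb-/-;p107+/+ replicate 1 was left out, 1 when pRb+/+ replicate 2 was, and 0 otherwise.

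Regulators of the follicle gave calls in both directions. Of 38 measured signalling and transcription factor genes of the follicle 1 rose and 1 fell, where 0.605% of all genes rose and 1.07% fell. The median was 0.19. At an unadjusted p below 0.05 in the limma model, 6 were higher and 9 lower, beside 11.5% and 9.98% of all genes. Sostdc1, which encodes an antagonist of BMP and Wnt signals, fell by 1.65 ± 0.22 (adjusted p = 0.0459). The homeobox gene Msx1 rose by 1.38 ± 0.15 (adjusted p = 0.0344), but its other probe set had the opposite sign. Factors known to drive hair keratin genes did not pass: Hoxc13 differed by -0.91 ± 0.59, Lef1 by -1.01 ± 0.70, Foxn1 by 0.62 ± 0.78 and Msx2 by -1.69 ± 0.32 (adjusted p = 0.0782). Hoxc13 differed by -1.75 in pRb+/+ skin and by -0.07 in pRb-/- skin, a difference between backgrounds that did not pass. Shh, the Hedgehog ligand of the matrix, differed by 1.23 ± 0.62, with 2.55 in pRb+/+ and -0.10 in pRb-/- skin.

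**Figure D3:**
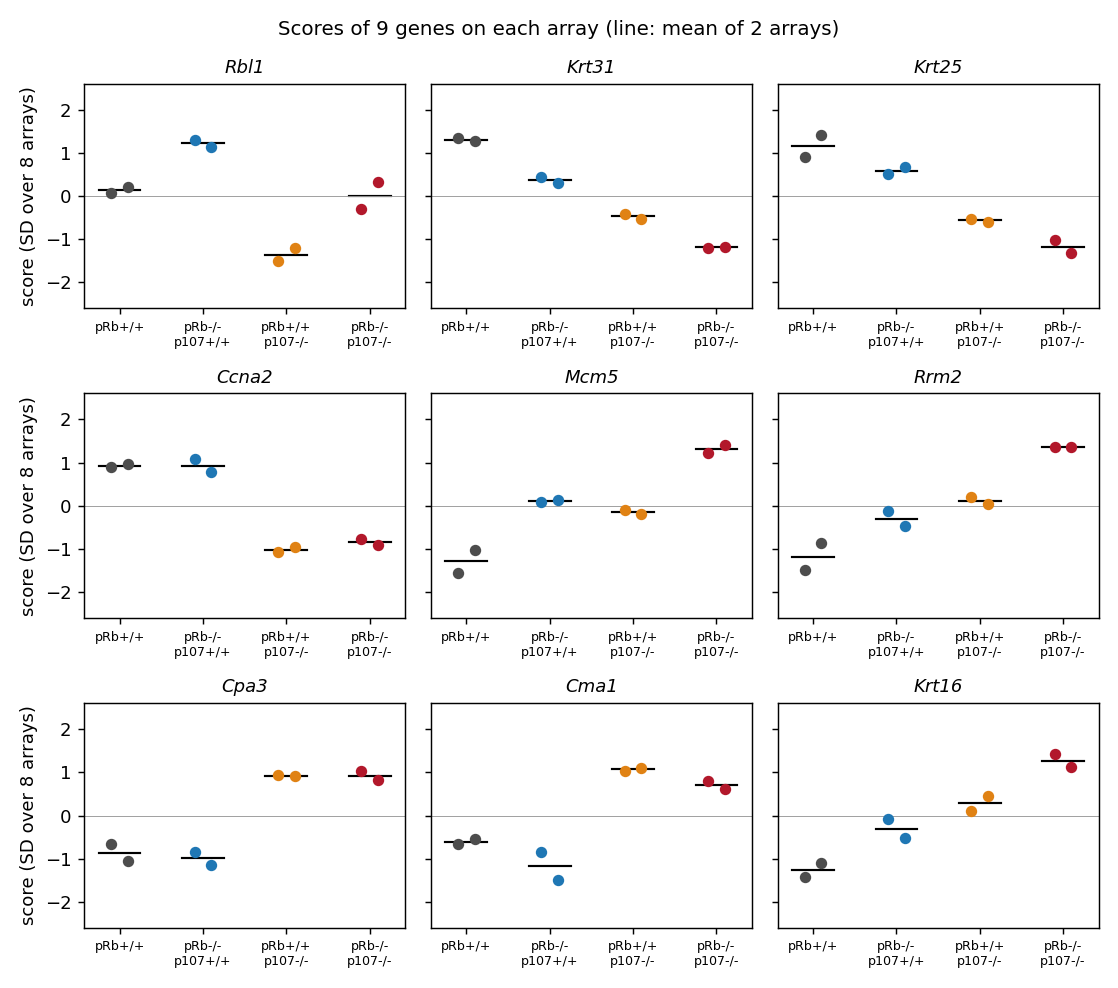
Scores of 9 genes on each of the 8 arrays are given in SD over the arrays, with 1 point an array and a line at the mean of the 2 arrays of a genotype. Krt31 and Krt25 step down over the 4 genotypes, Rrm2 and Krt16 step up over them, Mcm5 is lowest in pRb+/+ and highest in pRb-/-;p107-/- skin with the single mutants between, and Ccna2, Cpa3 and Cma1 part by p107 status.

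Among genes of S phase and DNA replication, the classic targets of E2F, few passed but most differences were positive. Of 48 measured genes 2 rose and 1 fell, 38 had positive differences and 32 were higher in both backgrounds. Over all genes 0.605% rose and 1.07% fell, 56.4% had positive differences and 34.7% were higher in both backgrounds. The median of the list was 0.88 (0.67 in pRb+/+ and 1.12 in pRb-/- skin). Mcm5, a subunit gene of the replicative helicase, scored -1.55 and -1.02 in pRb+/+ skin, 0.08 and 0.14 in pRb-/-;p107+/+, -0.11 and -0.19 in pRb+/+;p107-/- and 1.23 and 1.41 in pRb-/-;p107-/- skin. Skin lacking either protein lay in the middle and skin lacking both on top, so that the groups by p107 status overlapped. Its difference was 1.17 ± 0.13 (adjusted p = 0.0349), with 1.14 in pRb+/+ and 1.21 in pRb-/- skin. Rrm2, the small subunit gene of ribonucleotide reductase, which supplies deoxynucleotides, scored -1.49 and -0.87, -0.13 and -0.47, 0.19 and 0.04, and 1.37 on both arrays over the same genotypes. It rose by 1.48 ± 0.18 (adjusted p = 0.0415), while its 2 other probe sets differed by 0.34 and 0.89 without passing. By the probe set that stood for each gene, all 7 measured MCM genes were positive in both backgrounds, with a median of 1.05, though Mcm5 alone passed. Mcm6 differed by 1.14 ± 0.24 (adjusted p = 0.0884), Mcm4 by 1.02 ± 0.28 and Mcm2 by 1.05 ± 0.46. The only other probe set of Mcm6 and that of Mcm4 had the opposite sign over both backgrounds. The sliding clamp gene Pcna differed by 0.70 ± 0.16 and the primase gene Prim1 by 0.91 ± 0.14 (adjusted p = 0.0982 and 0.0554). Over 9 genes that load and fire origins the median was 1.27. The call that went down was Uhrf1, which maintains DNA methylation (-1.28 ± 0.17, adjusted p = 0.0471), and its other probe set differed by -0.03.

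With array medians subtracted, after quantile normalization, or without any one array, 0 S phase genes passed, and their median stayed between 0.70 and 1.02. At an unadjusted p below 0.05, 16 of the 48 were higher and 1 lower in the limma model, where 11.5% of all genes were higher and 9.98% lower. The Mcm5 promoter is shown because it holds overlapping sites of the E2F type and the gene rose. In the RefSeq sequence (GRCm38.p6, chr8:75109259-75109558, plus strand, from 250 bases before to 50 after the start site) capitals mark TTTCGCGC at positions -153 to -146, overlapping TTTGGCGC on the other strand at -149 to -142.
Mcm5: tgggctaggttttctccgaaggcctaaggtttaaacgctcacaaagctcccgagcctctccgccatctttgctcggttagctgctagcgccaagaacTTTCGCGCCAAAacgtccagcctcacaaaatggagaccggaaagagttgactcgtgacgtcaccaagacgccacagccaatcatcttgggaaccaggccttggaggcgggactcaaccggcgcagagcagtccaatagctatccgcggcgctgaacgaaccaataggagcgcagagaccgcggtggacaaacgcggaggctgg
The letters TTTCCCGC, TTTGGCGC, TTTCGCGC or TTTGCCGC, on either strand, were found in 3.57% of all 9882 promoters and in 12 of 41 S phase promoters (29.3%). They were in 3 of 60 promoters of genes that rose (5%), in 1 of 104 of genes that fell (0.962%) and in none of 28 hair shaft promoters.

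Genes of later phases of the cycle had differences of both signs. Of 50 genes of G2 phase and mitosis 1 fell and none rose, where 1.07% of all genes fell and 0.605% rose. Differences were positive for 25 and negative for 25, and the median was -0.05 (0.21 in pRb+/+ and -0.54 in pRb-/- skin). Without overlap between the groups, 7 were lower and 1 higher, beside 7.17% and 7.47% of all genes. At an unadjusted p below 0.05 in the limma model, 9 were lower and 4 higher, beside 9.98% and 11.5% of all genes. The one that fell was Ccna2, the cyclin A2 gene, at 0.90, 0.96, 1.08 and 0.78 on the arrays that were not p107-/- and -1.07, -0.97, -0.76 and -0.91 on the p107-/- arrays. The difference was -1.86 ± 0.09 (adjusted p = 0.0121). Its other probe set differed by 0.32 ± 0.54 and overlapped, so the probe sets of Ccna2 did not move together. The neighbour of Ccna2 on chromosome 3, the RNA exosome gene Exosc9, also fell (-1.77 ± 0.24, adjusted p = 0.0486). Promoters of the G2 and mitosis list often held TTTGAA, the letters of the CHR element that pocket protein complexes act through (31 of 42, 73.8%, against 13% of all promoters, on either strand). TTTGAA was also found in 12 of 28 hair shaft promoters (42.9%), in 21 of 104 promoters of genes that fell (20.2%) and in 2 of 60 of genes that rose (3.33%). TTTGAA and the LEF and TCF letters CTTTGA can overlap.

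Of 13 genes of cyclin-dependent kinase inhibitors and G1 cyclins, the cyclin D1 gene Ccnd1 fell and none rose. Over all genes, 0.605% rose and 1.07% fell. Ccnd1 scored between 0.65 and 1.03 on the arrays that were not p107-/-, -0.39 and -0.68 in pRb+/+;p107-/- skin and -1.16 and -1.33 in pRb-/-;p107-/- skin. Its difference was -1.78 ± 0.18 (adjusted p = 0.0306), and both of its other probe sets were negative too, at -1.28 and -1.43, without passing. Ccnd2 differed by -1.51 ± 0.45 and the p21 gene Cdkn1a by 0.63 ± 0.67, the latter with -0.79 in pRb+/+ and 2.05 in pRb-/- skin. Among 15 genes of the Rb family, E2F factors and their partners, Rbl1 itself was the one call. E2f4, whose protein is a partner of p107, differed by 1.75 ± 0.29 (limma model, adjusted p = 0.0617) without passing. Its groups did not overlap, beside 7.47% of all genes that were higher without overlap. E2f1 differed by 1.32 ± 0.45 and E2f3 by 0.25 ± 0.82, neither past the threshold. Of 28 genes of the p53 response and apoptosis Mcl1 fell and none rose, with a median of 0.12.

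Most mast cell genes had positive differences in both backgrounds. Of 14 measured genes 3 rose and none fell, where 0.605% of all genes rose and 1.07% fell. Differences were positive for 13, beside 56.4% of all genes. Without overlap between the groups, 8 were higher and 1 lower, beside 7.47% and 7.17% of all genes. The median was 1.55, with 1.68 in pRb+/+ and 1.16 in pRb-/- skin. Cpa3, the carboxypeptidase of mast cell granules, scored -0.66 and -1.06 in pRb+/+, -0.84 and -1.13 in pRb-/-;p107+/+, 0.93 and 0.92 in pRb+/+;p107-/- and 1.02 and 0.83 in pRb-/-;p107-/- skin. The arrays parted by p107 status with no step by pRb status, and the difference was 1.85 ± 0.12 (adjusted p = 0.0227). The chymase gene Cma1 rose by 1.78 ± 0.16 (adjusted p = 0.0282) and the tryptase gene Tpsab1 by 1.75 ± 0.20 (adjusted p = 0.0363). Tpsab1 reached 1.37 and 1.27 in pRb-/-;p107-/- skin against 0.39 and 0.47 in pRb+/+;p107-/- skin. Mcpt-ps1 (1.76 ± 0.27), Tpsb2 (1.68 ± 0.36) and Srgn (1.66 ± 0.37), the core protein of the granules, differed without passing, as did the receptor genes Kit (1.40 ± 0.49) and Fcer1a (1.08 ± 0.63). Ms4a2 differed by 0.01 ± 0.81, and Mcpt4, a protease of connective tissue mast cells, went the other way (-1.54 ± 0.38, adjusted p = 0.116). The list's mean score lay between -0.88 and -0.43 on the arrays that were not p107-/- and between 0.51 and 0.71 on the p107-/- arrays. Without pRb+/+ replicate 1 or pRb-/-;p107+/+ replicate 2 the list had 1 call, and without any other array it had 0.

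Markers of other cells of whole skin gave at most 1 call a list in each direction, where 0.605% of all genes rose and 1.07% fell. Of 22 macrophage genes, the receptor gene Csf1r fell (-1.67 ± 0.21), with the opposite sign in 1 of its 2 other probe sets, and the median was -0.02. The heme synthesis gene Alas2 rose among 13 erythroid genes (1.82 ± 0.18). The angiopoietin receptor gene Tek fell among 20 endothelial genes (-1.72 ± 0.20) and the growth cone gene Gap43 among 15 Schwann cell and nerve genes (-1.76 ± 0.21). Of 32 fibroblast and collagen genes, Dpt, the dermatopontin gene of the dermis, fell (-1.73 ± 0.22) and Dlk1 rose (1.29 ± 0.16), and the cardiac actin gene Actc1 rose among 39 skeletal muscle genes (1.30 ± 0.18). Of 14 lymphocyte genes 0 passed, and 0 had an unadjusted p below 0.05, in the limma model. Neither did any of 14 smooth muscle and pericyte genes pass, though their median was -1.22 and 6 were lower and 2 higher at an unadjusted p below 0.05. No melanocyte gene of 11 passed, with 4 lower and 2 higher at an unadjusted p below 0.05. At that threshold in the limma model 9.98% of all genes were lower and 11.5% higher. The part of shifts in cell makeup in the results was not tested.

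Sebaceous and fat genes were lower where they passed. Of 11 measured sebocyte genes 2 fell and none rose, where 1.07% of all genes fell and 0.605% rose. Differences were negative for 10, while 56.4% of all genes had positive ones, and the median was -1.26 (-0.89 in pRb+/+ and -1.94 in pRb-/- skin). Elovl3, a fatty acid elongase gene of sebaceous glands, scored between 0.85 and 0.98 on the arrays that were not p107-/- and -0.55, -1.0, -0.84 and -1.27 on the p107-/- arrays, a difference of -1.83 ± 0.16 (adjusted p = 0.0282). Cidea, a lipid droplet gene, scored between 0.72 and 1.2 on the former and between -1.15 and -0.63 on the latter, a difference of -1.83 ± 0.17 (adjusted p = 0.0282). The desaturase gene Scd1 differed by -1.65 and Fa2h by -1.65, neither past the threshold. Of 27 adipocyte genes 2 fell, Cidea and the elongase gene Elovl6 (-1.82 ± 0.19), and the median was -0.81. The backgrounds differed in this list, with a median of 0.41 in pRb+/+ and -2.06 in pRb-/- skin. The adiponectin gene Adipoq, for one, differed by 0.47 and -2.54, so that its mean over both, -1.04 ± 0.68, describes neither.

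In the layers of the epidermis, most spinous genes had positive differences and the other layers were mixed. Of 16 spinous layer genes 1 rose, 13 differences were positive and the median was 1.15 (0.83 in pRb+/+ and 1.46 in pRb-/- skin). Over all genes 0.605% rose and 1.07% fell, and 56.4% had positive differences. The call was Dsc1, a desmosomal cadherin gene of differentiating cells, at -1.36 and -1.25 in pRb+/+, 0.12 and -0.16 in pRb-/-;p107+/+, 0.20 and -0.17 in pRb+/+;p107-/- and 1.31 and 1.32 in pRb-/-;p107-/- skin. Like Mcm5 it was in the middle where either protein was lost and highest where both were, with a difference of 1.33 ± 0.11 (adjusted p = 0.0251). The early differentiation keratin genes Krt1 and Krt10 each differed by 1.52 without passing (adjusted p = 0.153 and 0.159). Of 37 granular and cornified layer genes, Tgm3 rose, and Scel, Elovl3 and the cystatin gene Cst6 (-1.79 ± 0.20) fell, with a median of 0.36. Of 14 basal layer genes 0 passed in the limma model, and Krt5 differed by 1.48 ± 0.41. At an unadjusted p below 0.05 in that model, 3 basal layer genes were higher and 1 lower, beside 11.5% and 9.98% of all genes.

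Among 34 genes of stressed and hyperproliferating keratinocytes, Krt16 rose and none fell, where 0.605% of all genes rose and 1.07% fell. Krt16, the stress keratin gene, scored -1.41 and -1.10 in pRb+/+, -0.08 and -0.52 in pRb-/-;p107+/+, 0.10 and 0.46 in pRb+/+;p107-/- and 1.43 and 1.11 in pRb-/-;p107-/- skin. It stepped up over the 4 genotypes, by 1.54 with p107 loss in pRb+/+ skin and 1.57 in pRb-/- skin (1.56 ± 0.16 over both, adjusted p = 0.0311). Its type II partners and Krt17, another type I stress keratin gene, were not higher in both backgrounds: Krt6b differed by 1.58 in pRb+/+ and -0.58 in pRb-/- skin, Krt6a by -0.30 and 1.13, and Krt17 by -1.29 and -0.31. The list's median was 0.88, with 0.41 in pRb+/+ and 1.37 in pRb-/- skin. In both backgrounds 20 were higher and 3 lower, beside 34.7% and 25.4% of all genes, and 11 had opposite signs. The difference between backgrounds had an unadjusted p below 0.05 for 14 of the 34 (interaction of the 4-genotype limma model). Over all 22626 probe sets this held for 2964.

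Genes of oxidative phosphorylation included 5 that fell among 71, and none that rose, against 1.07% of all genes that fell. They were Atp5e (-1.81 ± 0.11, adjusted p = 0.0227) of the ATP synthase, Cox8b (-1.80 ± 0.17), Cox7a1 (-1.70 ± 0.22) and Cox7a2 (-1.77 ± 0.25) of cytochrome oxidase and Ndufb10 (-1.73 ± 0.18) of complex I. Atp5e scored 1.05, 1.04, 0.81 and 0.72 on the arrays that were not p107-/- and -0.72, -0.53, -1.0 and -1.36 on the p107-/- arrays. Cox7a2 was called by its other probe set too. The list as a whole was not alike in both backgrounds by value: its median was -0.07 in pRb+/+ skin and -1.41 in pRb-/- skin, -0.77 over both. By complex, the median was -1.19 over 32 genes of complex I, -0.86 over 4 of complex II, 0.24 over 8 of complex III, -0.49 over 12 of complex IV and -0.69 over 14 of the ATP synthase. With quantile normalization 9 members were called and without any one array 0. Of 42 ribosomal protein genes, Rpl14 fell (-1.80 ± 0.21), with a list median of 0.07.

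Where the backgrounds went apart, no single probe set passed the test of the difference itself. The interaction term of the 4-genotype limma model called 0 probe sets. Its lowest adjusted p was 0.0502, and 2964 probe sets had an unadjusted p below 0.05. The neuropeptide gene Calcb scored between -0.61 and -0.44 on 6 arrays but 1.67 and 1.57 in pRb-/-;p107-/- skin, a difference of -0.10 in pRb+/+ and 2.22 in pRb-/- skin (interaction adjusted p = 0.0502). Rdh9 had differences of -0.31 and 1.81, and Errfi1, a feedback inhibitor of the EGF receptor, of -1.0 and 1.29. In the other direction, the muscle enolase gene Eno3 differed by 0.81 and -1.98, Tmem144 by 0.84 and -2.0 and the desmosomal cadherin gene Dsc3 by 2.10 and -0.44. Among lists without a shared call, medians in pRb+/+ and pRb-/- skin were 1.70 and -0.08 for 31 Hox genes, -0.77 and 1.75 for 17 glucocorticoid and stress response genes, and -0.35 and 0.79 for 26 AP-1 and immediate early genes. At an unadjusted p below 0.05 in the limma model over both backgrounds, 7 Hox, 2 glucocorticoid response and 5 immediate early genes were higher, and 1 immediate early gene was lower, beside 11.5% of all genes higher and 9.98% lower.

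**Figure D4:**
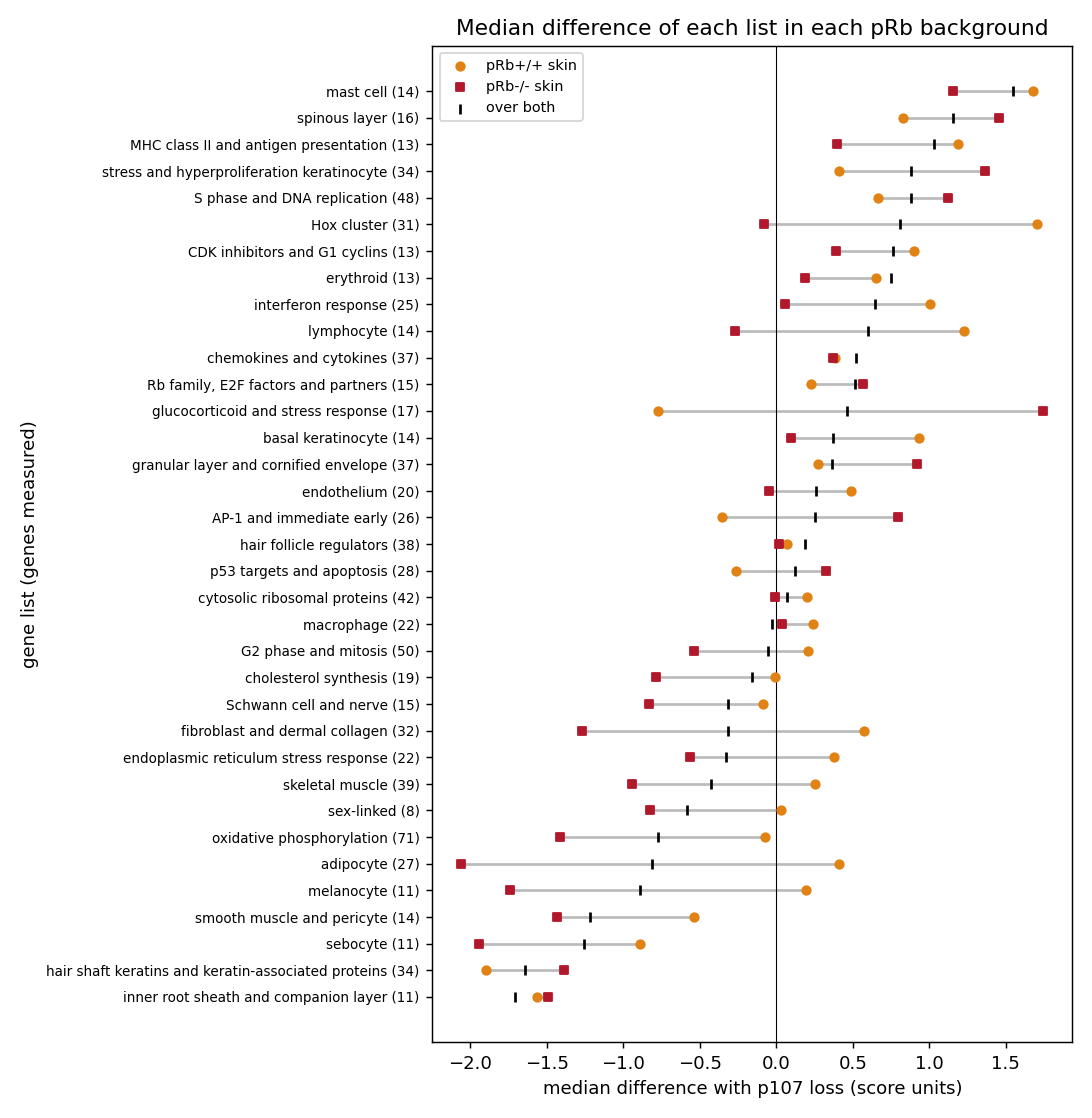
Each row is a gene list, with the number of genes measured, ordered by its median difference with p107 loss over both backgrounds (black tick), in score units. Orange circles give the median in pRb+/+ skin and red squares that in pRb-/- skin. The hair shaft and inner root sheath lists lie low and the mast cell list high in both, while the adipocyte, glucocorticoid and Hox lists lie far apart between backgrounds.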

How the data were processed

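Whole skin of newborn mice was measured on 8 Affymetrix arrays. The authors deposited 1 standardized score for each of 22690 probe sets and array. RMA was used per the submitters' processing notes, without a version. No label records the standardization, and whether log or linear values were standardized is unknown here. Titles gave each array its group and replicate number.

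After removal of 64 control probe sets, limma 3.58.1 (R 4.3.3) fitted a linear model with terms for p107 and pRb status (5 residual degrees of freedom, Benjamini-Hochberg over 22626 probe sets, threshold 0.05). The unmoderated test was used because it is the same on scores as on the values they came from. A model with 4 genotype coefficients gave the differences within backgrounds and their interaction. The model with terms for p107 and pRb status was tested on simulated data.

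The platform annotation gave 1 gene symbol for 20380 tested probe sets, several for 691 and none for 1555, and 20351 matched the gene table, which changed 0 symbols. For each gene 1 probe set was taken, names ending in _at before _a_at, _s_at and _x_at, then the lowest number. Named genes were the targeted genes, the 15 largest shared rises and falls by the smaller difference of the backgrounds, up to 3 called genes a direction in each of 35 gene lists, and the 3 genes a direction of smallest interaction p with opposite signs. Other genes were named after their values were seen. The members and lists were chosen with earlier results of these data known, and lists were given no test. Promoters were the first listed for 9882 of 12393 genes. Alternatives were other scalings, covariates, a replicate block, moderation, probe set filters and leaving out each array. Same-numbered arrays did not deviate together (correlations from -0.131 to 0.105).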

Additional observations from a re-analysis of the deposited data

Results flagged for a closer look

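Over 4 lists the mean score moved one way with p107 loss in pRb+/+ skin and the other way in pRb-/- skin, on every array, and the difference between backgrounds was not tested for the list means. The glucocorticoid and stress response list differed by -0.615 in pRb+/+ skin and 1.40 in pRb-/- skin, and the AP-1 and immediate early list by -0.350 and 0.619. The adipocyte list differed by 0.187 and -1.41, and the fibroblast and dermal collagen list by 0.496 and -1.04. For these 4 lists an average over both backgrounds describes neither, apart from the members named as shared.

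In 2 of 74 groups of 4 arrays, an array stood far from the other 3 by its list mean or control mean. The list of kinase inhibitors and G1 cyclins averaged 0.339 on pRb-/-;p107+/+ replicate 1, far above the other arrays that were not p107-/-. The smooth muscle and pericyte list averaged -0.958 on pRb-/-;p107-/- replicate 2, far below the other p107-/- arrays. Chance flags about 1 in 20 groups.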

How the results depend on the processing

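Counts of calls depended on the processing. All 61 called genes named by the rule kept their sign in each alternative that measured them, which their choice by large differences largely fixes. Over both backgrounds (397 calls) there were 0 with moderation, 187 without pRb status in the model, 22 with the replicate block, 687 for the average of the 4-genotype model and 0 to 56 without an array. For the p107 effect within pRb+/+ skin (95 calls) there were 0 with moderation, 52 with array medians subtracted, 1 with the replicate block and 0 to 2 without an array. For the p107 effect within pRb-/- skin (310 calls) these were 0, 137, 2 and 0 to 17, and 171 after quantile normalization. The interaction had 1 call without _x_at and _s_at probe sets and 0 to 1 without an array. With moderation the hair shaft, inner root sheath, mast cell, oxidative phosphorylation and S phase lists had 0 calls each. Hair shaft calls (20) were 3 without pRb status, 10 with array medians subtracted, 12 after quantile normalization, 2 with the block and 0 to 6 without an array. Their median was -1.73 with array medians subtracted, -1.70 after quantile normalization and -1.70 to -1.58 without an array. Inner root sheath calls (7) were 1 without pRb status, 0 with the block and 0 to 2 without an array. Mast cell calls (3) were 1 with the block, 6 for the 4-genotype average and 0 to 1 without an array. Oxidative phosphorylation calls (5) were 3 without pRb status, 9 after quantile normalization, 3 without _x_at and _s_at probe sets, and 0 with the block or without an array. S phase calls (3) were 0 without pRb status, with either scaling, with the block or without an array. The replicate numbers do not pair the arrays. Errfi1, not called, turned from 0.15 to -0.0445 after quantile normalization and ran from -0.115 to 0.389 without an array, negative without any 1 of the 4 pRb-/- arrays. The causes were not tested. Scores carry no signal over background, so its limit cannot be read.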

Other observations

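Some gene groups outside the comparisons above had no call. At an unadjusted p below 0.05 in the limma model, 11.5% of all genes were higher and 9.98% lower. Of 13 genes of MHC class II and antigen presentation, 11 differences were positive with a median of 1.03 (1.19 in pRb+/+ and 0.40 in pRb-/- skin), and 1 was higher at an unadjusted p below 0.05 in the limma model. The invariant chain gene Cd74 differed by 1.71. Among 25 interferon response genes the median was 0.64 (1.00 and 0.05), and 4 were higher and 1 lower at an unadjusted p below 0.05. Among 37 chemokine and cytokine genes it was 0.52 (0.38 and 0.37), with 4 higher and 2 lower. Among 19 cholesterol synthesis genes it was -0.16, with 1 higher and 4 lower, and among 22 genes of the endoplasmic reticulum stress response -0.33, with 2 higher and 2 lower. Of 8 sex-linked genes 1 was lower at an unadjusted p below 0.05, and the median was -0.58. For 6 of the 8, including Xist and Eif2s3y, the interaction of p107 and pRb status had an unadjusted p below 0.05.

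Genes called over both backgrounds that no list held, and chosen after their values were seen, included further epithelial genes. Car6, a secreted carbonic anhydrase gene, stepped down over the 4 genotypes from 1.15 and 1.16 in pRb+/+ skin, through 0.64 and 0.46 and then -0.40 and -0.44, to -1.26 and -1.32 in pRb-/-;p107-/- skin (-1.71 ± 0.07, adjusted p = 0.00966). Mt4, a metallothionein gene of stratified epithelia, differed by -1.71 ± 0.17, the protease inhibitor gene Spint1 by -1.77 ± 0.12 and Nid1, a basement membrane gene, by -1.78 ± 0.12. The hyaluronan synthase gene Has3 rose by 1.63 ± 0.20, the water and glycerol channel gene Aqp3 by 1.30 ± 0.17 and Psat1, an enzyme of serine synthesis, by 1.72 ± 0.23.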
